A study of Mus musculus with 15 samples.

Results

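The interleukin-1 (IL-1) family was followed through 9 genes in RNA-seq of sorted brain myeloid cells. These were the ligands Il1a, Il1b and Il18, the soluble inhibitors Il1rn and Il18bp, and the receptor chains Il1r1, Il1r2, Il1rap and Il18rap. They were taken by gene symbol from the 38924 genes that the deposited files list. All 9 were among the 14967 genes that had a normalized level of at least 1 cpm (counts scaled to library size) in at least 2 libraries and were tested. The mice were wild-type male C57BL/6J (B6) animals of 12 months of age. They were kept on a control chow diet (CD) or switched at 2 months to a western diet (WD), which is richer in fat and sugar. Brains without olfactory bulb and cerebellum were dissociated after perfusion, and CD11b+ CD3e- cells were sorted by the level of CD45, a leukocyte surface protein, into CD45hi and CD45lo cells. The 15 libraries comprised 4 of CD45hi and 4 of CD45lo cells from CD-fed mice, and 3 of CD45hi and 4 of CD45lo cells from WD-fed mice. The study describes its deposited counts as given for each animal, but the labels do not name the mouse of each library. The p-values measure only the spread between these libraries, which may be partly technical. CD45hi and CD45lo libraries may come from the same brains, and the main fit did not pair them.

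IL-1alpha and IL-1beta, the products of Il1a and Il1b, bind the signalling receptor encoded by Il1r1, which then recruits the accessory chain encoded by Il1rap and passes the signal through MyD88 and the IRAK kinases to NF-kappaB. Il1rn encodes the receptor antagonist, which occupies the receptor without signalling, and Il1r2 encodes a decoy receptor that binds IL-1 but lacks a signalling domain. IL-1beta and IL-18 are made as inactive precursors that caspase-1 cleaves, whereas the precursor of IL-1alpha is itself active. IL-18 is neutralized by the binding protein encoded by Il18bp and signals through the receptor chains encoded by Il18r1 and Il18rap. In the brain, microglia and infiltrating myeloid cells are known sources of IL-1.

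Il1a (chr2:129299610-129309972, mm10, minus strand) and Il1b (chr2:129364570-129371139, minus strand) are neighbours on chromosome 2, where Il1rn also lies (chr2:24336853-24351494, plus strand). Il1r2 (chr1:40074079-40125231), Il1r1 (chr1:40225080-40317257) and Il18rap (chr1:40515362-40551705) belong to a receptor cluster on the plus strand of chromosome 1. Il18 lies on chromosome 9, Il18bp on chromosome 7 and Il1rap on chromosome 16. All are protein-coding genes in GENCODE M21. The RefSeq promoter table (GRCm38.p6) held 12 start sites for the 9 genes. The 100 bases before the start of both IL-1 agonist genes, and of 3 genes that were higher in CD45hi cells, are given here because the agonists share a TATA box position but not a pattern of expression. Capitals mark matches on either strand to TATAAA (the TATA box), GAGGAA (the core bound by ETS factors such as PU.1) or GGG and TTCC with 3 bases between them (an NF-kappaB site), and these letters were chosen after the matches had been seen.
Il1a (chr2:129309973-129310072, minus strand): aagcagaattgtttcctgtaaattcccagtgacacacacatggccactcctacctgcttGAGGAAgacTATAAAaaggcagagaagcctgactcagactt
Il1b (chr2:129371140-129371239, minus strand): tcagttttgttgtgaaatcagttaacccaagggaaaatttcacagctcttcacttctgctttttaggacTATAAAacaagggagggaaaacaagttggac
Il1rn (chr2:24345271-24345370, plus strand): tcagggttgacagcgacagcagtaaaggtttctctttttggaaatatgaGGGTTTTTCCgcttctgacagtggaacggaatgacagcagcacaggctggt
Il1r2 (chr1:40085993-40086092, plus strand): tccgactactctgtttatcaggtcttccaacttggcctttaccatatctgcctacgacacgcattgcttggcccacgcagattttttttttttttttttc
Il18rap (chr1:40515262-40515361, plus strand): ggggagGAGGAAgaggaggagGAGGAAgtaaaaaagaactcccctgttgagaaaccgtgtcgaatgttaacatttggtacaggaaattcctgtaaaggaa

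TATAAA began 32 bases before the start of Il1a and 31 bases before the start of Il1b, both on the gene's strand. Of all 32851 promoters in the table, 1.99% had it on that strand between 40 and 20 bases before the start. Within the 250 bases before the start, GAGGAA was present in 23.3% of all promoters, and among the members in those of Il1a and Il18rap. The spaced NF-kappaB letters were present in 4.65% of all promoters, and among the members in 1 of the 3 promoters of Il1rn and 1 of the 2 of Il1r1. The Il1r2 promoter held none of these letters in this window. A match of letters is a description of the sequence and not a measured binding site.

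The level of Ptprc, which encodes CD45, was 2.22-fold higher in CD45hi than in CD45lo cells on the CD (edgeR FDR = 0.00438) and 2.94-fold higher on the WD (FDR = 8.05e-05), whereas Itgam, which encodes CD11b, was at least 1508 cpm in every library. CD45hi libraries carried markers of several cell types. All 10 microglia markers were lower in CD45hi cells on the CD and 7 of 10 on the WD, yet their summed level in CD45hi libraries was still 7766 to 9366 cpm, against 15891 to 20453 cpm in CD45lo libraries. In CD45hi libraries the markers of border-associated macrophages (6 of 6 higher on both diets), neutrophils (7 of 10) and monocytes (5 of 8 on the CD, 4 of 8 on the WD) rose together. Of the 10 NK and T cell markers 6 were tested, and 2 of them were higher on the CD and 3 on the WD, while Cd3e, which defines T cells, was at 0 in 14 of 15 libraries. For dendritic cells 1 of 6 markers was higher on both diets, for B cells 0 of 5 on the CD and 1 of 5 on the WD, and for endothelial and mural cells 1 of 7 on both. The summed level of markers of neurons, astrocytes and oligodendrocytes was 101 to 172 cpm in CD45hi and 82.2 to 107 cpm in CD45lo libraries on the CD, and 155 to 246 cpm and 69.0 to 91.1 cpm on the WD, where the sorts did not overlap. In a principal component analysis replicate 4 of CD CD45hi and replicate 1 of WD CD45hi stood apart from the other libraries of their groups, and the results below were also computed without both. Because the samples are bulk sorts, more cells of a type and more RNA per cell cannot be told apart.

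CD45hi cells carried more Il1b, Il1rn, Il1r2 and Il18rap than CD45lo cells on both diets, while Il1a overlapped between the sorts. Of the 9 members, 4 were higher and 0 lower on the CD, and the same 4 were higher and 0 lower on the WD. Over all 14967 genes tested, 3.98% passed the test between sorts on the CD, of which those higher in CD45hi cells made up 3.39% of all genes, and 5.18% on the WD, with 4.01% higher (edgeR glmTreat with a 1.5-fold threshold, FDR under 0.05). No member passed the threshold between the diets in either sort, where 0.254% of all genes did so in CD45hi cells and 0 genes in CD45lo cells. The comparisons share libraries and are therefore not independent of each other. The plot of all 9 members by library shows the 4 genes that separate the sorts next to the 5 that do not.

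**Figure D1:**
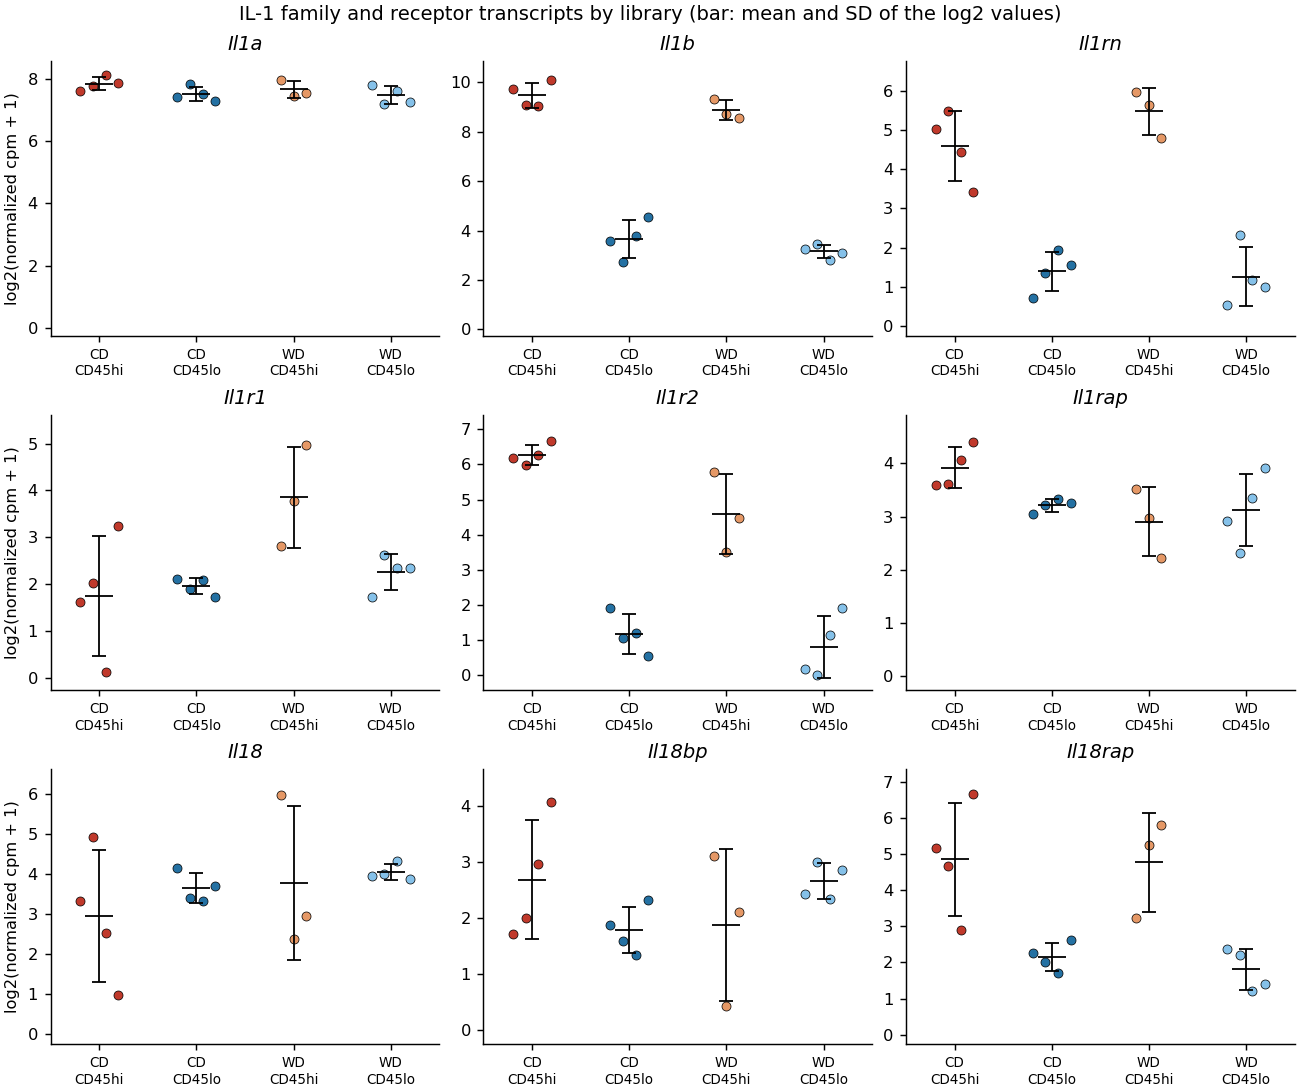
Normalized level of the 9 members in each of the 15 libraries, as log2(cpm + 1) on the y axis, with groups of diet and CD45 level on the x axis, each point 1 library and bars the mean and SD of the log2 values. Il1b, Il1rn, Il1r2 and Il18rap lie higher in every CD45hi library than in any CD45lo library of the same diet, whereas Il1a lies at 145 to 276 cpm in all 15.

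Il1b was the most strongly separated ligand. On the CD it was at 839, 541, 526 and 1089 cpm in CD45hi libraries and at 10.9, 5.55, 12.7 and 22.5 cpm in CD45lo libraries, and on the WD at 644, 426 and 380 cpm and at 8.65, 9.94, 6.09 and 7.42 cpm. The lowest CD45hi library was thus far above the highest CD45lo library on either diet. The difference was 58-fold on the CD (log2 fold change 5.86 ± 0.40, SE, edgeR FDR = 1.26e-07) and 60.2-fold on the WD (5.91 ± 0.41, FDR = 2.1e-07). An antisense gene, Il1bos, overlaps Il1b, and the sources do not say whether counting used the strand. By the same counting Il1bos reached at most 24.5 cpm in any library, and the expected counts of Il1b were whole in every library. The genes whose log2 cpm profile over the 15 libraries was most like that of Il1b were H2-Eb1, H2-Ab1 and Cd74, which encode MHC class II proteins and their invariant chain, with root mean square differences of 0.41, 0.50 and 0.57 log2 units, where the spread of Il1b itself was 3.02. This likeness is over libraries that differ chiefly by sort, and it carries no test.

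Il1a, the other agonist, did not follow Il1b. On the CD it was at 195, 216, 276 and 230 cpm in CD45hi and 168, 225, 182 and 156 cpm in CD45lo libraries, and on the WD at 249, 172 and 186 cpm and at 223, 145, 194 and 152 cpm. The groups overlapped on both diets. The log2 fold change between sorts was 0.33 on the CD, with a 95% interval of -0.07 to 0.72, and 0.18 on the WD, with an interval of -0.24 to 0.61, so that a difference as large as that of Il1b lies outside both intervals. Reads of Il1a were in part shared with other genes by RSEM, as its expected counts were not whole in 15 of 15 libraries, and it overlaps the antisense gene Gm14023, which reached 140 cpm. The 3 most similar profiles were those of Tpm3, which encodes a tropomyosin, of Gm25072, and of Ptma, which encodes prothymosin alpha (differences of 0.18, 0.19 and 0.19 log2 units).

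Per transcript length, the mix of ligand transcripts was therefore inverted between the sorts. Protein was not measured in these libraries, so shares and ratios of transcripts are not amounts of ligand or receptor. In TPM, the RSEM abundance scaled for transcript length, by which genes can be compared within a library, Il1b was at 1015, 696, 636 and 1333 in CD45hi libraries of CD-fed mice and Il1a at 148, 176, 212 and 161. Il1b thus made up 87.3%, 79.8%, 75% and 89.2% of the summed TPM of both agonists there, and 81.2%, 80.0% and 77.2% on the WD. In CD45lo libraries Il1b was at 8.48 to 39.1 TPM and Il1a at 149 to 244 TPM. The share of Il1b was 3.62% to 18.8% on the CD and 5.16% to 10.6% on the WD. The 2 ranges did not overlap between the sorts on either diet, and Il1a was the member with the highest mean TPM in CD45lo cells, as Il1b was in CD45hi cells.

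Il1rn, the antagonist, rose in the same direction as Il1b but with another order among the CD45hi libraries. In CD-fed mice it was at 31.9, 44.1, 20.7 and 9.78 cpm in CD45hi and 0.647, 1.56, 2.83 and 1.93 cpm in CD45lo libraries, and on the WD at 62.1, 49.1 and 26.8 cpm and at 0.459, 4.01, 1.26 and 0.985 cpm. No library of CD45lo cells reached the lowest CD45hi library of its diet. The difference was 15.2-fold on the CD (log2 fold change 3.93 ± 0.70, edgeR FDR = 0.00295) and 27.4-fold on the WD (4.78 ± 0.74, FDR = 0.000789). The CD45hi library with the highest Il1b, replicate 4 of the CD group, had the lowest Il1rn of all 7. The summed TPM of Il1a and Il1b was 22.0, 21.4, 56.8 and 167 times that of Il1rn in the CD libraries and 10.6, 16.7 and 31.8 times in the WD libraries, which overlap. In CD45lo libraries the same ratio was 20.9 to 287 on the CD and 48.1 to 166 on the WD, so the sorts overlapped on the CD, although on the WD it was higher in every CD45lo library. Il1rn had only 11 to 46 counts in CD45lo libraries on the CD and 7 to 54 on the WD, so the ratio rests on few reads there. The ratio of 20.9 came from CD CD45lo replicate 3, where Il1rn was at 10.2 TPM against 0.68 to 1.64 TPM in the other CD45lo libraries of CD-fed mice. In cpm it was at 2.83 there, from 46 counts, against 0.647 to 1.93, so the TPM set this library further apart than the cpm did. Without this library the CD45lo range began at 127 and still overlapped. The profiles closest to Il1rn were those of Mnda, Msr1, which encodes a macrophage scavenger receptor, and Igf1, which encodes insulin-like growth factor I (differences of 0.55, 0.62 and 0.64 log2 units).

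**Figure D2:**
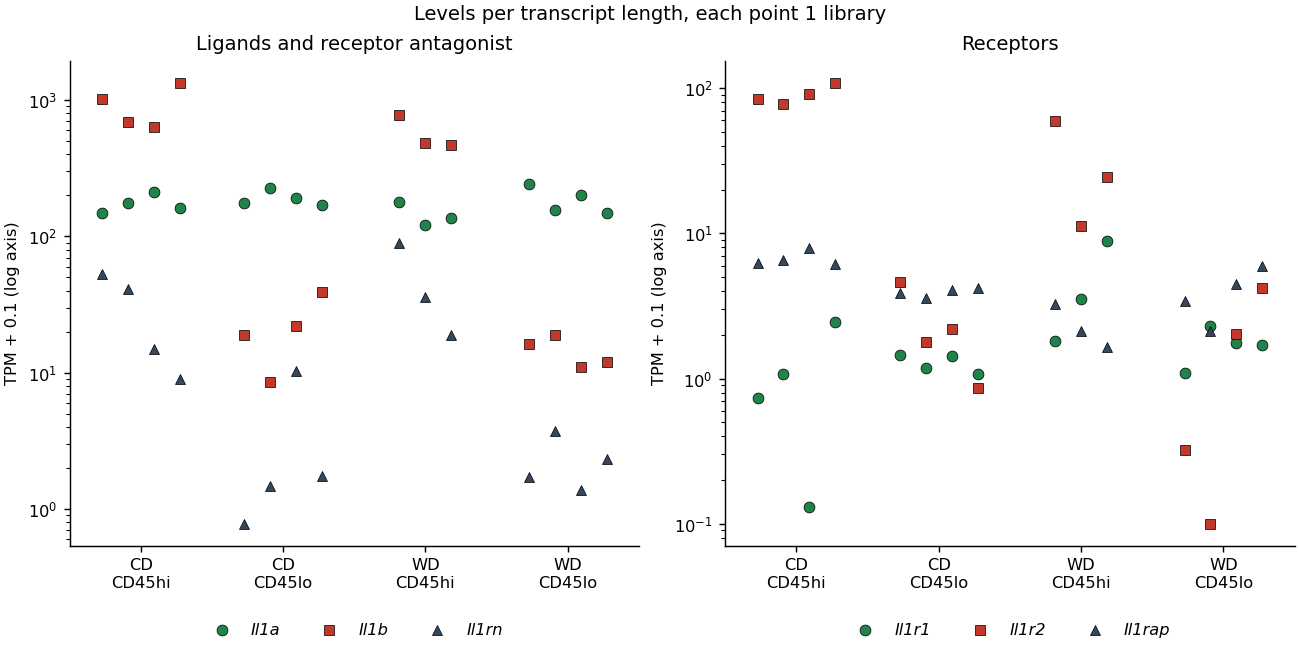
TPM + 0.1 on a log axis for the ligands and antagonist (left) and the IL-1 receptor chains (right), with groups of diet and CD45 level on the x axis and each point 1 library. Il1b lies above Il1a in every CD45hi library and below it in every CD45lo library, and Il1r2 lies above Il1r1 in every CD45hi library.

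The decoy receptor Il1r2 was the receptor chain with the largest difference between sorts. CD-fed mice had it at 71.4, 61.7, 76.6 and 101 cpm in CD45hi and 2.77, 1.09, 1.29 and 0.454 cpm in CD45lo libraries, and on the WD at 53.7, 10.3 and 21.3 cpm and at 0.131, 0, 1.21 and 2.73 cpm. All CD45hi libraries were above all CD45lo libraries, and all 3 WD CD45hi libraries were below all 4 CD CD45hi libraries. The difference between sorts was 55.2-fold on the CD (log2 fold change 5.79 ± 0.95, edgeR FDR = 0.00115) and 27.8-fold on the WD (4.80 ± 0.94, FDR = 0.00543). On the WD the call was lost when only the 2 compared groups were fitted (edgeR FDR = 0.078), with an FDR of 1.07e-05 to 0.0821 over all alternatives run. The antisense gene Gm16894, which overlaps Il1r2, was at 12.7 cpm or less. Nearest in profile were Hdc, which encodes the histamine-forming enzyme histidine decarboxylase, the signalling adaptor Stap1 and the chemokine gene Cxcl2 (differences of 1.21, 1.25 and 1.31 log2 units).

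Il1r1, the signalling receptor, was low and did not pass the test between sorts. On the CD it was at 2.10, 3.06, 0.088 and 8.43 cpm in CD45hi and 3.29, 2.75, 3.26 and 2.33 cpm in CD45lo libraries, and on the WD at 6.02, 12.7 and 30.2 cpm and at 2.29, 5.19, 4.06 and 4.09 cpm. The sorts overlapped on the CD, and on the WD every CD45hi library was above every CD45lo library. The value of replicate 3 of CD CD45hi rests on 1 count. The log2 fold change was 0.24 ± 0.83 on the CD (edgeR FDR = 1) and 2.06 ± 0.90 on the WD (FDR = 0.27). In TPM the decoy exceeded the signalling receptor in all 7 CD45hi libraries, with Il1r2 at 77.6 to 108 TPM and Il1r1 at 0.03 to 2.34 TPM on the CD, and 11.1 to 59.8 TPM and 1.72 to 8.82 TPM on the WD. In CD45lo cells Il1r2, at 0 to 4.49 TPM, and Il1r1, at 0.98 to 2.22 TPM, overlapped. Caap1, Dcun1d4 and Recql had the profiles closest to Il1r1, at differences of 0.79 to 0.80 log2 units, where the spread of Il1r1 itself was 1.47.

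Il1rap, the accessory chain shared by receptors of the family, was expressed in all libraries. On the CD it was at 11.1, 11.3, 15.7 and 20.1 cpm in CD45hi and 7.29, 8.30, 9.04 and 8.51 cpm in CD45lo libraries, and on the WD at 10.4, 6.91 and 3.68 cpm and at 6.56, 4.01, 9.17 and 14.0 cpm. The CD libraries did not overlap and the WD libraries did. Neither difference passed the test (log2 fold change 0.81 ± 0.51, edgeR FDR = 0.712, and -0.27 ± 0.55, FDR = 0.951). The closest profiles were those of Rps6ka5, Tkt and Ints6 (0.38, 0.38 and 0.40 log2 units).

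Counted by overlap alone, 5 of 9 members did not overlap between the sorts on the CD (Il1b, Il1rn, Il1r2, Il1rap and Il18rap), against 16.5% of all genes tested, and 5 of 9 on the WD (Il1b, Il1rn, Il1r1, Il1r2 and Il18rap), against 23.4%. All of these lay higher in CD45hi cells. The median log2 fold change of the 9 members was 1.45 on the CD and 2.06 on the WD, where that of all genes was 0.04 and 0.00. Without the 2 libraries that stood apart, Il1b, Il1rn, Il1r2 and Il18rap were again the members called on both diets, with log2 fold changes of 5.62, 4.21, 5.64 and 2.62 on the CD and 5.65, 4.50, 3.95 and 4.09 on the WD.

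**Figure D3:**
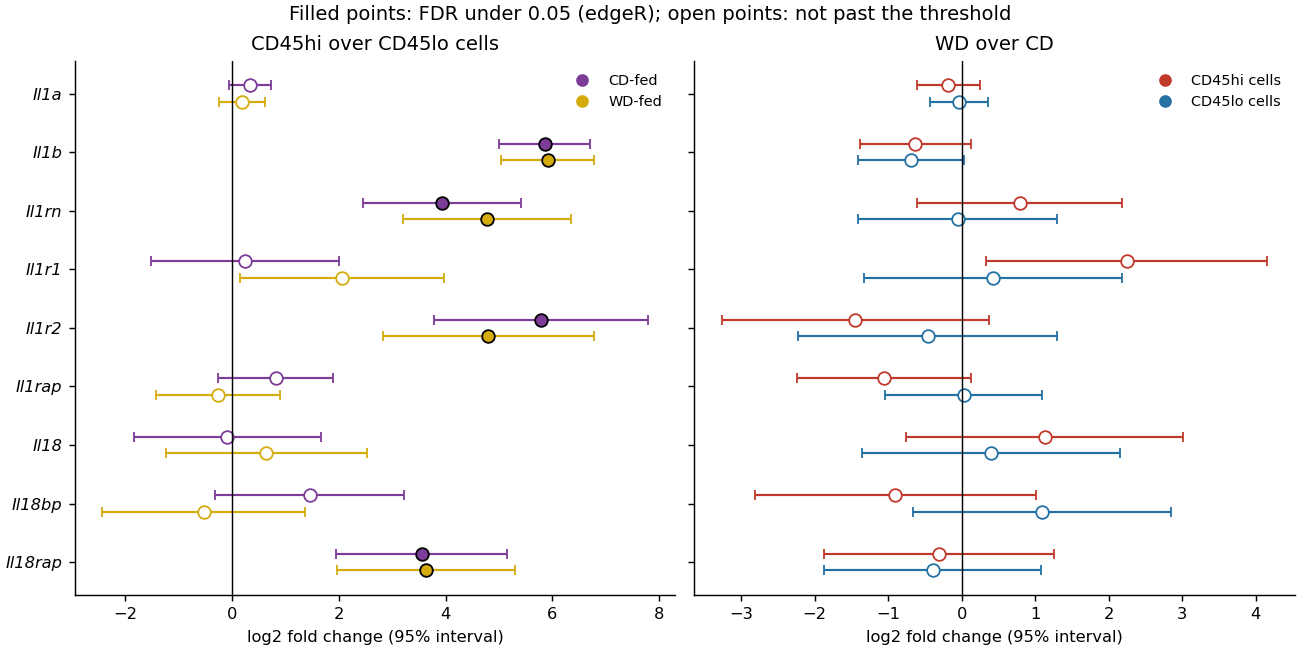
Log2 fold change of the 9 members with its 95% interval (x axis) between sorts on each diet (left) and between diets in each sort (right), with filled points past an FDR of 0.05 in edgeR. Between sorts Il1b, Il1rn, Il1r2 and Il18rap are filled on both diets, at 3.55 to 5.91, and between diets all points are open.

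In the IL-18 arm only the receptor chain Il18rap, the accessory chain needed for IL-18 signalling, passed the test between sorts. Its level on the CD was 34.7, 24.4, 6.42 and 101 cpm in CD45hi and 3.82, 3.01, 2.27 and 5.11 cpm in CD45lo libraries, and on the WD at 8.37, 37.3 and 54.9 cpm and at 4.20, 3.64, 1.32 and 1.67 cpm. The CD45hi libraries varied widely but stayed above those of CD45lo cells. The difference was 11.7-fold on the CD (log2 fold change 3.55 ± 0.76, edgeR FDR = 0.013) and 12.4-fold on the WD (3.63 ± 0.79, FDR = 0.0129). Without replicate 4 of CD CD45hi, its highest library, the CD call was lost (2.62, FDR = 0.0644), as it was without CD CD45lo replicate 2 (FDR = 0.0548) or 3 (FDR = 0.0514), and the WD call was lost without WD CD45lo replicate 3 (FDR = 0.0506). Over all alternatives run the FDR of Il18rap was 0.000363 to 0.0644 on the CD and 0.000865 to 0.121 on the WD. Its partner chain Il18r1 was at 6.16, 3.89, 0 and 5.79 cpm in CD CD45hi libraries and at 0 counts in all 3 WD CD45hi libraries, where a count of 0 allows up to 0.201 to 0.282 cpm. Cd209f, Ifitm6 and Fosl2 had the profiles closest to Il18rap (0.71, 0.79 and 0.79 log2 units).

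Il18 itself, the cytokine, did not separate the sorts. Its level on the CD was 9.11, 29.7, 4.75 and 0.966 cpm in CD45hi and 16.8, 9.49, 9.10 and 12.0 cpm in CD45lo libraries, and on the WD at 62.2, 4.23 and 6.75 cpm and at 14.4, 15.1, 19.2 and 13.8 cpm. CD45lo libraries held a narrow range, whereas CD45hi libraries lay on both sides of it, with the lowest value in replicate 4 of CD CD45hi and the highest in replicate 1 of WD CD45hi. These are the libraries that stood apart in the principal component analysis. The log2 fold change was -0.09 ± 0.83 on the CD (edgeR FDR = 1) and 0.64 ± 0.89 on the WD (FDR = 0.87), and without both libraries it was 0.30 (FDR = 0.988) and -1.51 (FDR = 0.251). Il18 shares its locus with Bco2 on the opposite strand, which reached 89.2 cpm. In TPM Il18 ranked second after Il1a in CD45lo cells, at 32.3 to 59.6 on the CD, where it overlapped Il1b, and 45.7 to 67.2 on the WD, where it did not. Pofut1, 1700049G17Rik and Eif2b3 were closest in profile (0.59, 0.61 and 0.62 log2 units).

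Il18bp, the inhibitor of IL-18, was at 2.29, 2.98, 6.77 and 15.9 cpm in CD45hi and 2.65, 2.02, 1.54 and 3.97 cpm in CD45lo libraries on the CD, and at 7.62, 0.335 and 3.30 cpm and at 4.39, 7.05, 4.06 and 6.21 cpm on the WD. The sorts overlapped on both diets. Its log2 fold change was 1.45 ± 0.84 on the CD (edgeR FDR = 0.59) and -0.54 ± 0.90 on the WD (FDR = 0.91). The inhibitor lies within the span of Numa1 on the opposite strand, a gene at 85.5 to 205 cpm. The expected counts of Il18bp were nevertheless whole in every library, so they gave no sign of reads shared by RSEM.

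Other cell types moved with the sorts in these libraries. The summed level of the 10 neutrophil markers was 2908, 3465, 1166 and 3398 cpm in CD CD45hi libraries and 1125, 766 and 1967 cpm in WD CD45hi libraries, against 79.3 to 692 cpm in CD45lo libraries. Il1r2 was highest in CD replicate 4 and lowest in WD replicate 2, the library with the lowest neutrophil sum, but the CD library with the lowest neutrophil sum, replicate 3, had the second highest Il1r2. The sum of border-associated macrophage markers was 2000 to 2150 cpm in CD CD45hi libraries and 727, 2799 and 1918 cpm in WD CD45hi libraries, and Il1rn was highest in the WD library with the lowest of these sums, replicate 1. NK and T cell markers summed to 25.9, 58.2, 34.9 and 13.9 cpm in CD and 36.7, 43.8 and 171 cpm in WD CD45hi libraries. Il18rap was highest in the library with the lowest NK and T cell sum, CD replicate 4. It was second highest, at 54.9 cpm, in the library with the highest sum, WD replicate 3. The part of these and the other listed cell types in the differences was not tested.

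**Figure D4:**
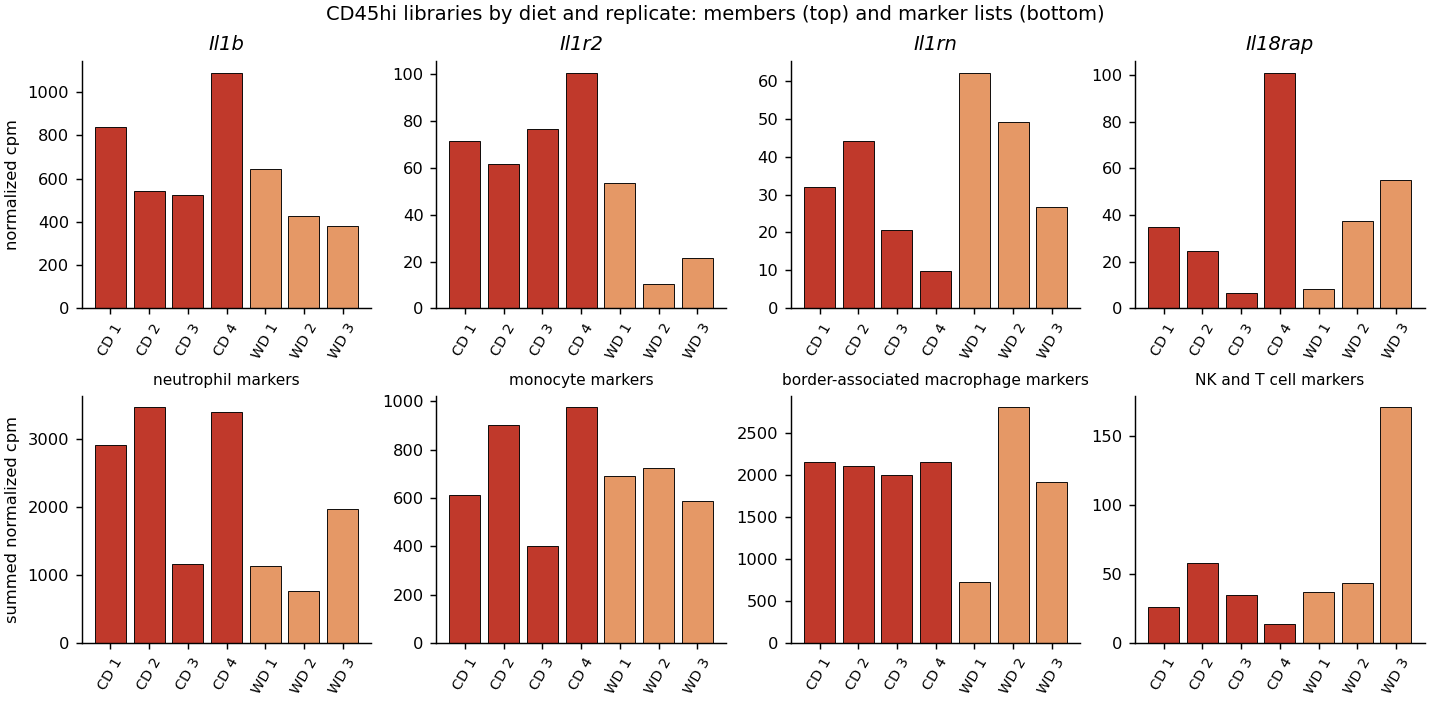
Level of 4 members (top row, normalized cpm) and summed level of 4 marker lists (bottom row, summed normalized cpm) in each of the 7 CD45hi libraries, named on the x axis by diet and replicate, with bars starting at 0. Il18rap is highest (101 cpm) in CD replicate 4, where NK and T cell markers are lowest (13.9 cpm). It is second highest (54.9 cpm) in WD replicate 3, where these markers are highest (171 cpm). Il1r2 is lower in the 3 WD libraries than in the 4 CD libraries.

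Between diets, CD45hi cells of WD-fed mice had less Il1r2 and Il1rap and more Il1r1 on average, but 0 of 9 members passed the test, where 0.254% of all genes did. Il1r2 was at 61.7 to 101 cpm on the CD and 10.3 to 53.7 cpm on the WD, and Il1rap at 11.1 to 20.1 cpm and 3.68 to 10.4 cpm, neither with overlap. These were the 2 of 9 members that did not overlap between the diets, against 5.77% of all genes tested. The log2 fold change was -1.45 ± 0.86 for Il1r2 (edgeR FDR = 0.397) and -1.05 ± 0.56 for Il1rap (FDR = 0.343). Il1r2 passed in 1 alternative, the quasi-likelihood form of edgeR 4 (FDR = 0.0298), and its FDR was up to 0.785 in the others. Il1r1, which overlapped between the diets, had a log2 fold change of 2.25 ± 0.91 (FDR = 0.216), and without the 2 libraries that stood apart it was 3.60 (FDR = 0.0553, the lowest of all alternatives run, the highest being 0.864). In the same comparison 4 of 10 neutrophil markers had an unadjusted p under 0.05 in edgeR, as had 2628 of all 14967 genes, and 0 of the 10 were called. The neutrophil sums above overlapped between the diets. The part of neutrophils in these differences was not tested.

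The ligands and inhibitors of CD45hi cells overlapped between the diets. Il1b had a log2 fold change of -0.63 ± 0.36 (edgeR FDR = 0.373), with a 95% interval of -1.38 to 0.12, and Il1a of -0.18 ± 0.20 (FDR = 0.69). Il1rn was at 0.79 ± 0.66 (FDR = 0.57) and Il18 at 1.13 ± 0.89 (FDR = 0.547), the latter with -1.41 (FDR = 0.245) without the 2 libraries that stood apart, so its sign rested on them. Il18bp was at -0.90 ± 0.91 (FDR = 0.651) and Il18rap at -0.31 ± 0.74 (FDR = 0.875). The intervals of Il1rn, Il18, Il18bp and Il18rap each span more than 2 log2 units and include 0.

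In CD45lo cells the diets could not be told apart for any member, and edgeR gave an FDR of 1 for all 9. The same test called 0 of all 14967 genes there (123 with an unadjusted p under 0.05), and DESeq2 called 4. Il1b was at 5.55 to 22.5 cpm on the CD and 6.09 to 9.94 cpm on the WD, with a log2 fold change of -0.69 ± 0.34. Il18bp was the single member without overlap, at 1.54 to 3.97 cpm on the CD and 4.06 to 7.05 cpm on the WD (1.09 ± 0.83), where 2.42% of all genes did not overlap. Il1a had the narrowest interval, -0.43 to 0.36 log2 units. The interaction of diet and sort, which asks whether the difference between sorts itself changed with diet, passed for 0 of 9 members, where 0.00668% of all genes did (FDR 0.63 to 0.999), so that a different Il1r2 or Il1r1 pattern on the WD is not shown.

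The wider IL-1 pathway was read from a list of 66 further genes, of which 55 were tested. On the CD 9 were higher and 0 lower in CD45hi cells, and on the WD 10 were higher and 0 lower, with 9 called on both. Over all genes tested, 3.39% were higher on the CD and 4.01% on the WD. The median log2 fold change of the 55 was 0.48 and 0.35, where that of all genes was 0.04 and 0.00. Cxcl2, a neutrophil chemokine that IL-1 induces, was at 114 to 205 cpm in CD and 76.4 to 132 cpm in WD CD45hi libraries and at 0.22 to 2.67 cpm in CD45lo libraries (log2 fold change 6.63 ± 0.61, edgeR FDR = 3.43e-06, and 7.11 ± 0.65, FDR = 3.13e-06). Ptgs2, which encodes the prostaglandin-forming enzyme COX-2, was 5.27 ± 0.88 (FDR = 0.00136) and 5.97 ± 0.93 (FDR = 0.000742). Nlrc4, a sensor that assembles an inflammasome, was 5.33 ± 1.18 (FDR = 0.0144) and 6.02 ± 1.26 (FDR = 0.00841), although in CD45hi libraries it ranged from 3.23 to 98.7 cpm. In CD45lo libraries Nlrc4 was at 0.057 to 2.70 cpm on the CD and 0 to 0.933 cpm on the WD. These levels came from 52 counts or fewer, so the size of both differences is uncertain. The smallest called differences were those of Tnfaip3 (1.47 and 1.53) and Nfkbia (1.65), which encode inhibitors of NF-kappaB, and of the chemokine gene Ccl2 (1.90 and 1.85), together with that of Tnf on the WD (1.97).

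**Figure D5:**
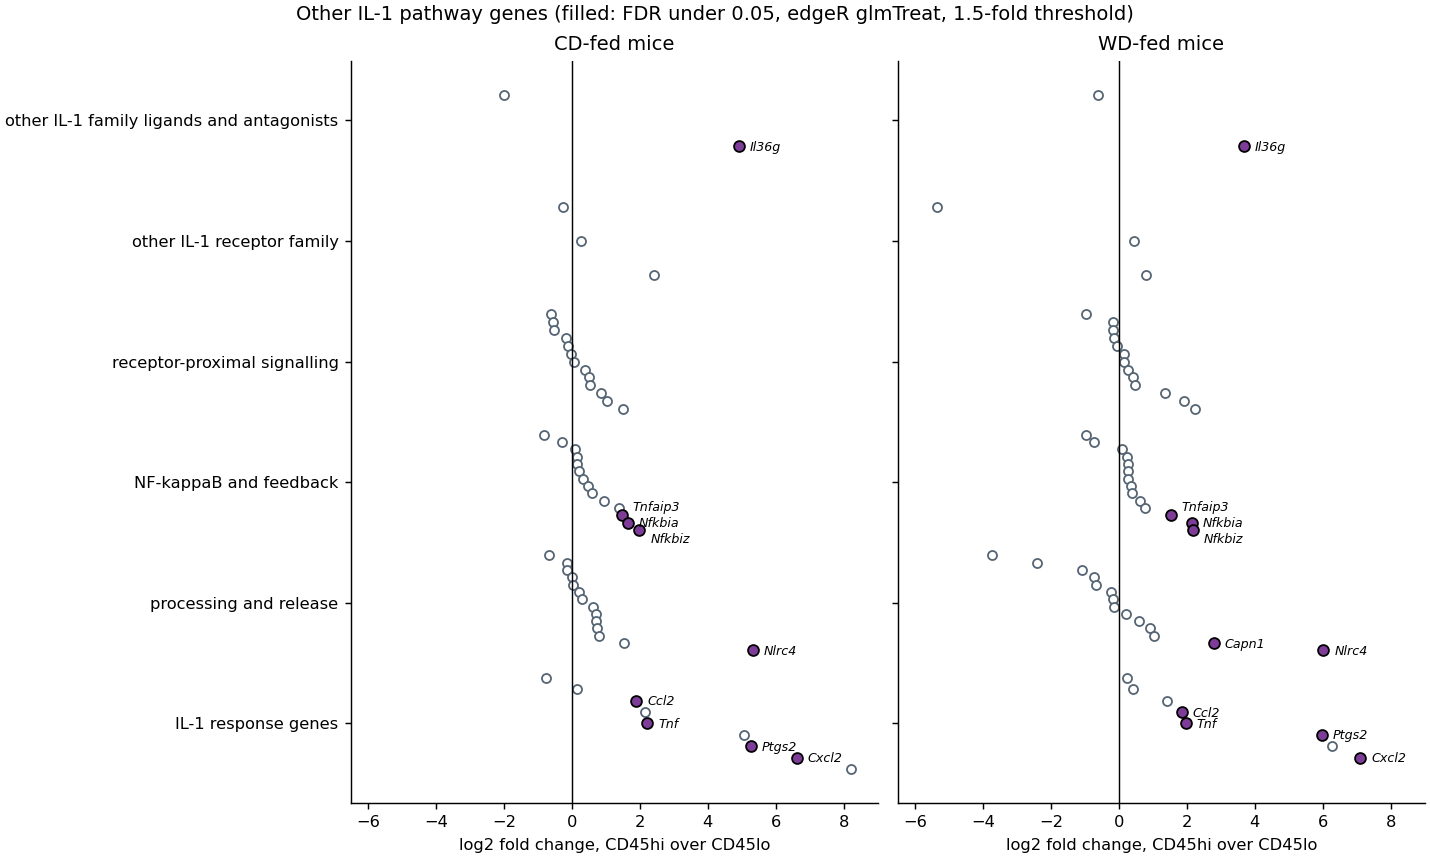
Log2 fold change between CD45hi and CD45lo cells (x axis) of the 55 tested genes of the wider IL-1 pathway by role (y axis), on the CD (left) and the WD (right), with filled, named points past an FDR of 0.05 in edgeR's glmTreat. All filled points lie to the right of 0, and none of the 13 receptor-proximal signalling genes is filled. Cxcl1 on the WD, at 9.53 and not past the threshold, lies beyond the end of the x axis and is not shown.

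By role, 4 of the 9 tested IL-1 response genes passed on both diets. Of the 13 receptor-proximal signalling genes 0 passed on either diet, where 3.98% of all genes passed on the CD and 5.18% on the WD, so that 0 of 13 is near the background. Myd88, the adaptor of the IL-1 receptor, had a log2 fold change of 0.05 ± 0.61 on the CD and 0.28 ± 0.66 on the WD. In the NF-kappaB group 3 of 14 genes passed on both diets, and Rela, which encodes a subunit of NF-kappaB, was at 0.08 ± 0.30 and 0.35 ± 0.33. Of 14 tested genes of processing and release, 1 passed on the CD and 2 on the WD. The second was the calpain gene Capn1, which encodes a protease that cleaves the IL-1alpha precursor. Capn1 was at 2.80 ± 0.61 on the WD (edgeR FDR = 0.0162). On the CD it differed in the same direction without passing (1.54 ± 0.56, FDR = 0.249). Casp1, which encodes caspase-1, was at 52.2 cpm or more in every library, with 0.72 ± 0.24 (FDR = 0.579) and 0.19 ± 0.26 (FDR = 0.972). Nlrp3, a sensor of the inflammasome, was at 0.21 ± 0.31 (FDR = 1) and 0.59 ± 0.33 (FDR = 0.657).

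Among the other ligands, Il36g, an IL-1 family agonist, was at 37.0, 39.0, 88.1 and 64.4 cpm in CD CD45hi and 1.47 to 2.28 cpm in CD CD45lo libraries (log2 fold change 4.92 ± 0.72, edgeR FDR = 0.000477). On the WD it was at 44.0, 1.74 and 29.4 cpm and at 1.21 to 2.80 cpm (3.69 ± 0.71, FDR = 0.00548), where replicate 2 lay within the range of CD45lo cells. Il36a, Il36b, Il36rn and Il1f10 were at 0 in all 15 libraries. Il33, a ligand released by damaged cells, was at 8.84 cpm or less in all libraries and did not pass on either diet. Il1rl1 and Il1rl2, the receptors of IL-33 and of the IL-36 ligands, had log2 fold changes of 0.27 ± 0.65 and -0.27 ± 0.59 on the CD and 0.80 ± 0.69 and 0.45 ± 0.64 on the WD. None of the 55 genes passed between diets in either sort, with the lowest FDR in CD45hi cells at 0.0969 for Il18r1.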

How the data were processed

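RNA-seq libraries (poly(A)-selected, 75 bp paired-end) of CD45hi and CD45lo cells formed 4 groups (diet and CD45 level, as titled). The authors trimmed bases under Phred 30, aligned reads with Bowtie2 through RSEM 1.2.12 to mm10 and deposited 1 table per library with expected counts, which are estimated, unnormalized counts that need not be whole, and with TPM, which the authors' RSEM run scaled for transcript length. The annotation release, use of the strand and which library ran on which sequencer are not given in the sources used here, so a batch by sequencer was not tested. Libraries held 11951412 to 17912272 expected counts in all. 3 counts, taken as the smallest measurable level, correspond to 0.156 to 0.282 cpm, which covers counting error only. None of 21 replicate pairs had identical counts.

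Expected counts were rounded. Genes reaching 1 cpm in 2 or more libraries were normalized by TMM and fitted in 1 model of 4 groups with edgeR 4.0.16 (R 4.3.3, the earlier quasi-likelihood form), after the study's methods. Sorts were compared with glmTreat at 1.5-fold, and diets and the interaction with glmQLFTest. FDR is the Benjamini-Hochberg adjusted p over all genes tested, and an SE is the log2 fold change divided by the square root of F. Profile likeness is the root mean square difference of centred log2 cpm (prior count 2) among genes with a group mean of at least 10 cpm. Levels of different genes were compared as TPM. Named genes were the 9 members, the 3 highest and 3 lowest log2 fold changes among called genes of the wider pathway in each comparison of sorts, any called between diets, and the 3 likeliest profiles of each member with at least 10 cpm in a group; Il18r1, Il36g, Myd88, Rela, Casp1, Nlrp3, Capn1, Il33, Il1rl1 and Il1rl2 were added after their values were seen. Members and lists were chosen with earlier results of these data known. Il36a, Il36b, Il36g and Il36rn were matched by identifier.

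Alternatives were DESeq2 1.42.0, the edgeR 4 quasi-likelihood form, DESeq2's size factor method (RLE), other filters, the other fold-change rule, the compared groups alone, replicate blocks and each library left out. A fit without the 2 libraries apart on the PCA was added after seeing the data. The fits were tested on simulated data. Promoters are from RefSeq (GRCm38.p6) and gene spans from GENCODE M21, which lists 37607 of 38924 identifiers. The tests of single neuron, astrocyte and oligodendrocyte markers are not reported here.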

Additional observations from a re-analysis of the deposited data

How the results depend on the processing

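Il1b and Il1rn were called between sorts on both diets, and Il1r2 on the CD, under every alternative run. Il18rap lost its call with the replicate block on the CD (FDR 0.0642 with title numbers, 0.0599 with file-name numbers) and on the WD (0.121 and 0.0672), and Il1r2 on the WD with file-name numbers (0.0821). The number of members called was then 3 (CD), and 3 (title) or 2 (file-name) on the WD. The deviations of same-numbered libraries from their group means had r of -0.02 to 0.07 across genes. The study split the CD11b+ CD45+ cells into both sorts, so a CD45hi and a CD45lo library may share a mouse. Values this weak cannot decide which libraries do, so the pairing is not established. The main fit treated all libraries as independent. With each library left out, 3 to 4 members were called between sorts on either diet and 0 between diets or in the interaction. In the wider pathway 8 to 9 genes were called on the CD, 8 to 12 on the WD and 0 to 2 between diets in CD45hi cells (Il18r1 without CD CD45hi replicate 3, Chuk without WD CD45hi replicate 2, Lcn2 and Ikbkb without WD CD45hi replicate 3). Without WD CD45hi replicate 1, 1 of the 11 pathway genes called between sorts on the WD was lower, as was 1 of 12 without the 2 libraries apart. With no fold-change threshold 1 of 10 was lower on the CD and 1 of 12 on the WD. The edgeR 4 form called 1 member, Il1r2 (-1.55, FDR 0.0298), and 1 pathway gene between diets in CD45hi cells, and DESeq2 called 3 pathway genes (Il18r1, Pycard and Ninj1). The background moved more. Between sorts, all genes called were 1202 (CD) and 1365 (WD) with no fold-change threshold against 595 and 775, and 398 and 353 on the WD with the replicate block. Leaving out 1 library gave 412 to 705 and 513 to 920. Between diets in CD45hi cells 38 genes became 1030 with DESeq2, 252 with the edgeR 4 form, 69 with at least 1 cpm in 4 libraries, 1 with glmTreat, 0 with the compared groups alone, 290 without the 2 libraries apart and 1 to 286 with 1 library left out. DESeq2 called 4 in CD45lo cells. The interaction called 1, and 188 with DESeq2, 0 with the edgeR 4 form or either block, 3 without the 2 libraries apart and 0 to 6 with 1 left out. The cause was not tested.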
